A study of Mus musculus with 15 samples.

Results

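The cytosolic ribosomal protein genes encode the proteins of the large (60S-type) and small (40S-type) subunits of the ribosome that translates nuclear messages. They were taken as every gene of the array whose probe sets carry a single symbol of the Rpl, Rps or Rplp series, with or without a short suffix, or the symbol Rpsa. The rule gave 49 genes on 105 probe sets, of 18193 genes named by a single symbol. For each gene the probe set with the highest mean was used, and 46 of the 49 passed a detection filter that asked for a log2 value of at least 4 on at least 3 of the 15 arrays. Rps16 (mean 1.40), Rpl39l (1.86) and Rpl3l (2.19) did not pass and were not tested. Many further ribosomal protein genes, among them Rpl5, Rpl10, Rpl23, Rpl26, Rplp1 and Rps27a, fall outside the rule and were not analysed here by name.

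Liver RNA of 15 mice aged 15 weeks was measured on an Affymetrix mouse array, in 4 groups. Untreated wild-type C3H/HeOuJ mice (n = 3) received nothing. Treated wild-type C3H/HeOuJ mice (n = 4) received the liver carcinogen diethylnitrosamine (DEN, 100 mg/kg) when 12 weeks old. They then received the hepatotoxin carbon tetrachloride (CCl4) in 2 doses of 0.50 ml/kg, at ages of 13 weeks and 15 weeks, and were killed 48 h after the last of these. Treated mutant mice (n = 4) were of the C3H/HeJ strain, whose Tlr4P712H allele disables the receptor for bacterial lipopolysaccharide, and received the same DEN and CCl4. The antibiotic group (n = 4) was wild-type C3H/HeOuJ that drank vancomycin (500 mg/l) with metronidazole, neomycin and ampicillin (1 g/l of each) for 2 weeks from week 10, before the same DEN and CCl4. Mice were labelled male, except that treated mutant replicate 1 carries no sex label. There was no untreated mutant or antibiotic-only group, and strain and Tlr4 allele differ together, so these cannot be told apart. A point mutation leaves the transcript in place, so Tlr4 levels do not check the genotype labels. The label description that speaks of other ages and of a resection contradicts the remaining labels and was not used.

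Values are log2 GCRMA probe set summaries, on which a difference of 1 is a doubling. Per array, 34.6% to 36.7% of probe sets reached 4, array medians over the tested genes ran from 7.65 to 7.91, and arrays of one group correlated at 0.977 to 0.993. The labels name no batch. In all, 9482 genes were tested with limma over the 15 arrays, and a gene is called higher or lower where its p, adjusted by Benjamini-Hochberg over all genes tested, is under 0.05. Hepatocyte markers fitted the tissue label: 13 of 13 measured were detected, with a summed log2 level of 17.49 to 17.61 on untreated and 16.96 to 17.19 on treated wild-type arrays. Nothing says which samples were prepared together, so p-values measure only the spread between these samples.

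Ribosomal proteins are made in near-equal amounts, carried to the nucleolus, and assembled there on ribosomal RNA made by RNA polymerase I. In mammals their messages begin with a C inside a run of pyrimidines at the 5′ end, the TOP motif, through which mTORC1 and the protein LARP1 set their translation, so that protein output can change with little change in the message. In the liver, ribosome production is known to rise when hepatocytes leave rest and grow after injury or tissue loss.

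Sequences around the annotated transcription start are printed because a start-site element common among these genes is a feature that the symbol rule did not use. They come from RefSeq on build GRCm38.p6, run from 40 bases before to 20 bases after the start, and have in capitals every C within 20 bases of the start that is followed without a break by at least 5 C or T, with the rest of its run, which can go on past the printed end. The first 7 belong to genes that were higher in treated than untreated wild-type liver. Rpl27a is shown as the member that was lower, and Rps27l and Rpl39 as members that were not called. Rplp0 is shown as a called member without such a run.
Rps6 (chr4:86857348-86857407, minus strand): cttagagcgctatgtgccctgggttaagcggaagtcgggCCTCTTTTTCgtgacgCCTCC
Rps9 (chr7:3704001-3704060, plus strand): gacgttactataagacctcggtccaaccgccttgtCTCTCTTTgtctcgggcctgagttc
Rps18 (chr17:33955646-33955705, minus strand): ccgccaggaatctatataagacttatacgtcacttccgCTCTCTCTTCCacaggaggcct
Rpl35 (chr2:39005112-39005171, minus strand): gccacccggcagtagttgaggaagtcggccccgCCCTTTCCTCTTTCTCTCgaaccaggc
Rpl7a (chr2:26910767-26910826, plus strand): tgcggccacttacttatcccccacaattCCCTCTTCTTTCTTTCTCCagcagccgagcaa
Rpl14 (chr9:120571477-120571536, plus strand): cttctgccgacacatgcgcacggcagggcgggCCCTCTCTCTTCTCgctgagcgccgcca
Rplp2 (chr7:141447611-141447670, plus strand): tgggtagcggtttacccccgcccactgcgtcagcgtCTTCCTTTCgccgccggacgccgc
Rpl27a (chr7:109519155-109519214, plus strand): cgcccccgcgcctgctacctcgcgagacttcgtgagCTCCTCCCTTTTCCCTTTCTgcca
Rps27l (chr9:66946046-66946105, plus strand): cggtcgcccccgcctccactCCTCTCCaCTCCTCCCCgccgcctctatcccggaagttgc
Rpl39 (chrX:37085203-37085262, minus strand): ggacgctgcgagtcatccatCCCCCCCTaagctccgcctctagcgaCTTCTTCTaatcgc
Rplp0 (chr5:115559427-115559486, plus strand): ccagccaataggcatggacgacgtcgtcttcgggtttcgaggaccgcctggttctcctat

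Of the 49 member genes, 43 had a RefSeq start, with 51 starts in all. A C of this kind lay within 20 bases of 30 of the 51 starts (58.8%), against 31.9% of 32851 starts of all genes in the table. The run in Rpl27a was the longest of those printed, at 20 bases, and the longer run in Rps6 had 10 bases. The hexamer CCGGAA, the core that ETS-family factors such as GABP bind, was found on either strand within 300 bases (250 before to 50 after the start) of 28 of 51 member starts (54.9%) and 14.9% of all starts. The heptamer AAGATGG, the core of the YY1 motif, was found on either strand in 8 of 51 (15.7%) and 6.34% of all. The motifs were searched separately, so a base may count in more than one. By gene, 24 of the 37 members called higher that had a start carried a run of C and T at one of their starts. The lower member and both uncalled members with a start carried one too, as did 1 of 3 members not tested. A gene can have several starts, and no share by gene was counted over all genes, so these counts have no background. A match of letters is not evidence of binding or of translation control.

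The first question is how ribosomal protein transcripts in wild-type liver differed after DEN and CCl4. Of the 46 members tested, 41 were higher and 1 was lower in treated than in untreated wild type, where 35.9% of all genes tested were higher and 26.7% lower. The median log2 difference of the members was 0.72 (1.65-fold), against 0.10 over all genes. At an unadjusted p under 0.05 the counts were also 41 and 1, where 37.6% of all genes were higher and 28.4% lower. The shift was narrow: the middle 50% of members lay between 0.56 and 0.91. Every treated array lay above every untreated array for 43 of the 46 members, a separation that 37.5% of all genes showed. Of 4 members that reached the filter with fewer than all untreated arrays at 4 or above, Rpl12, Rpl14 and Rps27 were among the higher ones, and Rps4l was not called. Among the 42 members at 4 or above on all untreated arrays, 38 were higher and 1 lower.

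**Figure D1:**
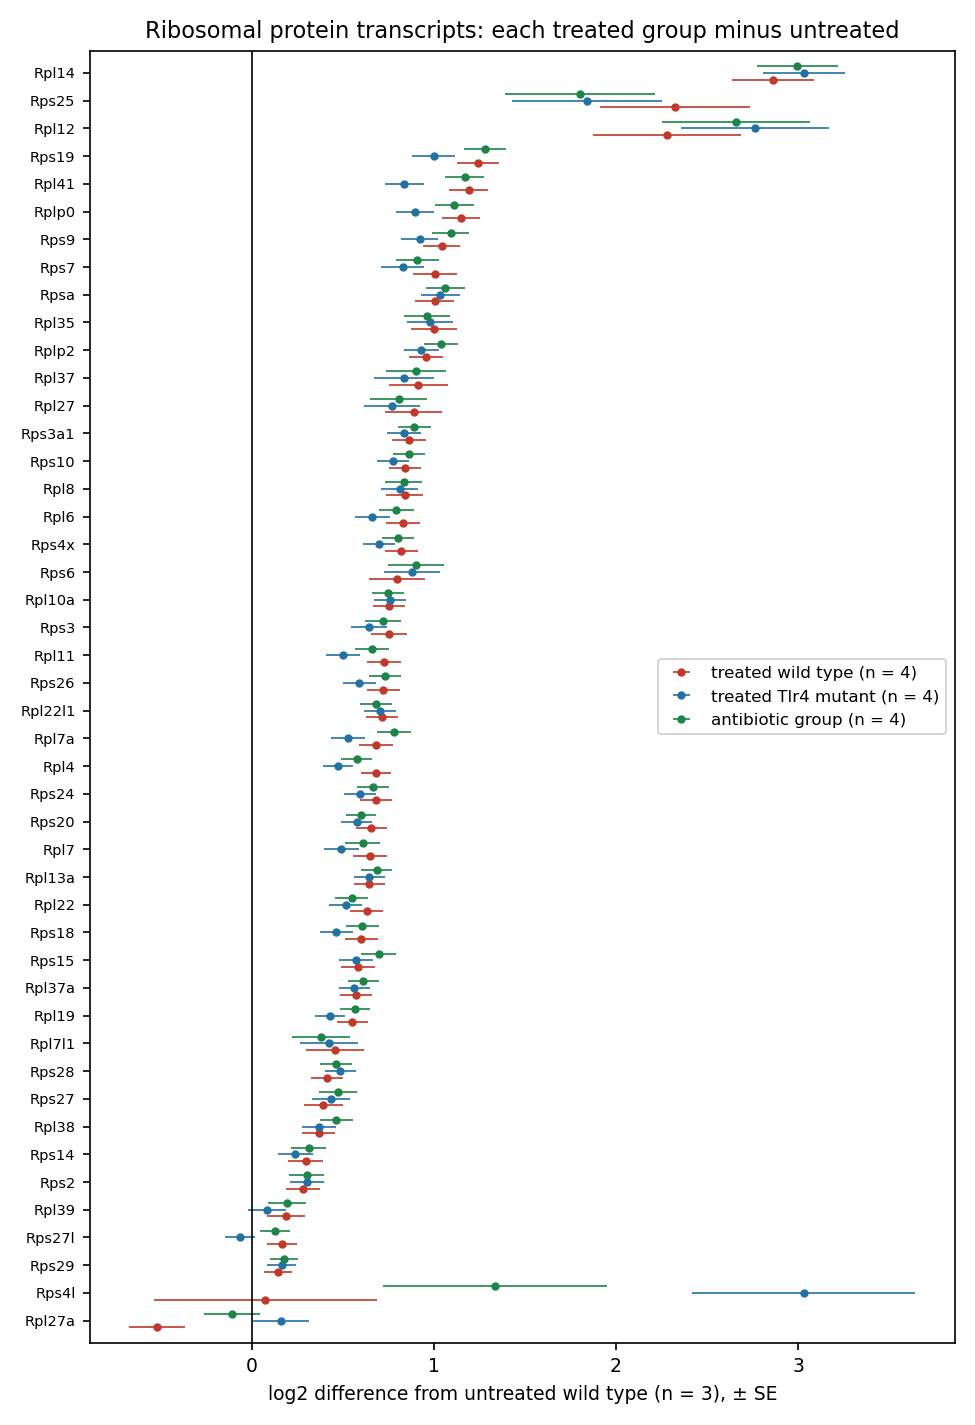
Each point is the log2 difference of a member's mean from untreated wild type (n = 3), for treated wild type (red), treated Tlr4 mutant (blue) and antibiotic group (green, n = 4 each), with bars of ± 1 standard error. All but a few points lie to the right of 0, most between 0.3 and 1.2, while Rpl14, Rps25, Rpl12 and the mutant's Rps4l lie beyond 1.8 and Rpl27a in treated wild type lies at -0.52. The untreated values of Rpl14 and Rps27 all lie under the detection floor of 4, so their points are not measured against a detected level. Rpl12 had 2 of 3 untreated arrays at 4 or above.

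Counts were close in the 2 subunits. Leaving out the paralogs, 20 of 22 large-subunit genes were higher and 1 was lower, with a median of 0.74. Of the small-subunit genes, 19 of 20 were higher and 0 lower, also with a median of 0.74. Of all genes tested, 35.9% were higher and 26.7% lower. The higher ones include Rpl12 and Rpl14 of the large subunit and Rps27 of the small, which reached the filter only with treated arrays. Bright members, meaning the 34 genes other than paralogs with a mean log2 level of at least 10 (17 of each subunit), included 33 higher and 0 lower, with a median of 0.73. Of the 36 members with a mean level of at least 12, 34 were higher. Of 415 other genes at that level, 108 were higher and 165 lower, with a median of -0.10.

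Averaged within each array, the 34 bright members stood at 12.73, 12.71 and 12.79 on the untreated arrays. The treated wild-type arrays stood at 13.51, 13.51, 13.40 and 13.50, the mutant arrays at 13.43, 13.29, 13.41 and 13.41, and the antibiotic arrays at 13.50, 13.48, 13.55 and 13.40. The untreated arrays lay below all 12 treated ones, and the 3 treated groups overlapped. The spread within a group was small, with SDs of 0.04 to 0.06, and the median residual SD of a single bright member was 0.082, against 0.231 for all genes tested.

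**Figure D2:**
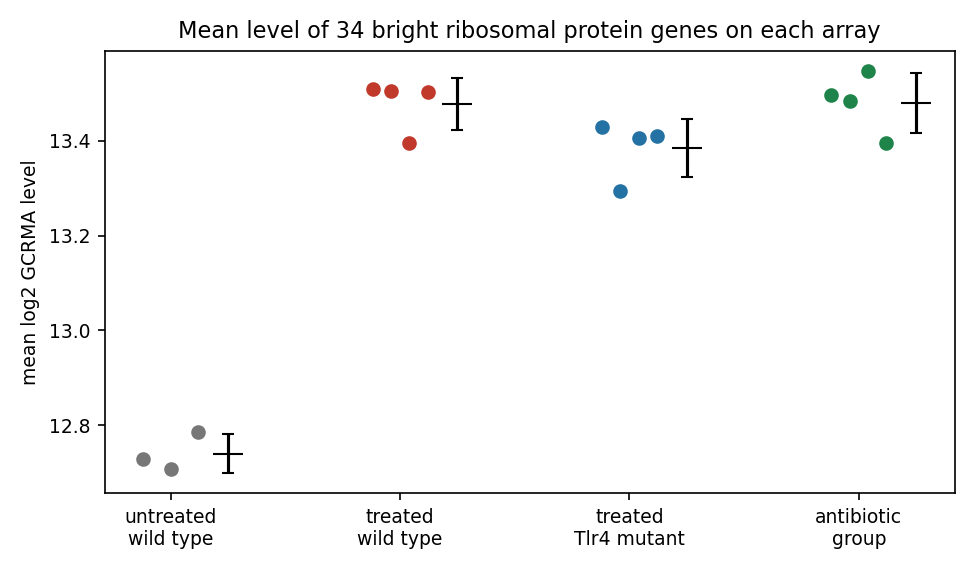
Mean log2 GCRMA level of the 34 bright ribosomal protein genes on each array (points), with the group mean and ± 1 SD beside it (n = 3 untreated, n = 4 in each other group). Untreated arrays lie between 12.71 and 12.79 and all treated arrays between 13.29 and 13.55.

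The scale itself carries a shift. When each array was centred on its median, the median of all genes moved from 0.10 to -0.12 and that of the members from 0.72 to 0.50. With this centring 35 members were higher and 1 lower. The calls of Rps2, Rps14, Rps27, Rps28, Rpl38 and Rpl7l1 were lost, and 42.4% of all calls were higher, in place of 57.4%. After quantile normalization, 41 were higher and 1 lower, with a member median of 0.69 and 48.6% of all calls higher. Rps29 then gained a call and Rps27 lost one.

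Large-subunit genes are taken first, beginning with the stalk, the arm that recruits elongation factors. Rplp0, the protein at the base of the stalk, read 12.61, 12.51 and 12.66 on the untreated arrays and 13.75, 13.83, 13.58 and 13.80 on treated wild-type arrays. The groups did not overlap, and the difference was 1.15 ± 0.11 (SE), or 2.21-fold (limma, adjusted p = 3.7e-07). Its partner Rplp2 rose by 0.96 ± 0.09 (adjusted p = 7.9e-07), from a mean of 12.74 to 13.70. Rplp1, the third stalk protein, was not analysed here.

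Rpl41, the shortest ribosomal protein, had untreated values of 12.22, 12.29 and 12.40. In treated wild type it read 13.59, 13.48, 13.40 and 13.52, a rise of 1.19 ± 0.11 (2.28-fold, limma adjusted p = 2.9e-07). Its 3 other kept probe sets were also higher, by 0.50, 0.67 and 1.49. Rpl35, which sits by the exit of the peptide tunnel, rose by 1.00 ± 0.13, from 13.16 to 14.16.

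Rpl4, whose loop lines the peptide exit tunnel, rose by 0.68 ± 0.08, and Rpl7 by 0.65 ± 0.09. Rpl11, which with Rpl5 and 5S RNA can bind the p53 ligase Mdm2 when assembly fails, read 12.28, 12.25 and 12.35 without treatment and 12.99, 13.08, 12.95 and 13.06 with it, a rise of 0.73 ± 0.09 (limma adjusted p = 9.7e-06). Rpl13a, known to leave the ribosome and silence inflammatory messages after interferon, rose by 0.65 ± 0.09. The other large-subunit genes with bright probe sets not named here rose by amounts between 0.55 and 0.89.

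Rpl38, known for its part in translating Hox messages in embryos, moved least among the bright large-subunit genes. It read 13.07, 13.13 and 13.21 untreated and 13.59, 13.43, 13.48 and 13.52 treated, so the groups stayed apart by a small margin, and it rose by 0.37 ± 0.09 (limma adjusted p = 0.0028). The call was lost with centred arrays, at 0.14.

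Rpl14, Rpl12 and Rpl39 were measured by dim probe sets. Rpl14 read 3.71, 3.59 and 3.55 on untreated arrays, all under the detection floor of 4, and 6.64, 6.67, 6.18 and 6.42 on treated wild-type arrays. Against the floor this is at least 5.57-fold higher. Rpl14 passed the filter only through its treated arrays, so no test is given for it. Rpl12, which lies by the stalk base, read 4.42, 4.16 and 3.68 without treatment and 7.31, 6.07, 5.45 and 6.65 with it, a difference of 2.28. With 2 untreated arrays at 4 or above, Rpl12 also reached the filter only with its treated arrays, so no test is given for it either. Rpl39, a small protein of the exit tunnel, read 5.05, 4.80 and 4.91 against 5.04, 5.06, 5.08 and 5.27. These values overlap, and the difference of 0.19 had a 95% interval of -0.03 to 0.41.

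Rpl27a was the one member that fell. It was read by 1 kept probe set, with a mean of 8.65 over all arrays, and its other probe set (mean 2.39) did not pass the filter. Untreated arrays read 8.95, 8.67 and 8.70, and treated wild-type arrays read 8.39, 7.84, 8.58 and 8.21. The 2 groups did not overlap, and the difference was -0.52 ± 0.15 (limma, adjusted p = 0.0082). It did not reach 1.5-fold.

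In the small subunit the largest rise among bright genes was that of Rps19, the gene most often mutated in Diamond-Blackfan anaemia. Untreated arrays read 11.86, 11.90 and 12.04, and treated wild-type arrays 13.22, 13.25, 13.06 and 13.16. The groups stood well apart, and the difference was 1.24 ± 0.12 (2.37-fold, limma adjusted p = 4.7e-07). Rpsa, also known as the laminin receptor, rose by 1.00 ± 0.11, from 12.08 to 13.09. Rps9 rose by 1.04 ± 0.10 and Rps7 by 1.01 ± 0.12.

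Rps6, the substrate by which S6 kinase activity is usually read, read 7.13, 6.83 and 6.75 untreated and 7.84, 7.82, 7.52 and 7.62 treated, a rise of 0.80 ± 0.15 (limma adjusted p = 0.00041). Rps3, a protein of the messenger entry channel, rose by 0.75 ± 0.10. Rps4x, the X-linked copy of S4, rose by 0.82 ± 0.09. Rps25, needed for initiation at some viral internal entry sites, read 4.48, 4.16 and 4.14 untreated and 7.63, 6.47, 6.04 and 6.19 treated, close to the floor in the first group, and rose by 2.33 ± 0.41.

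The smallest called rises of the small subunit were those of Rps14 and Rps2. Rps14, the gene whose loss underlies the anaemia of the 5q- syndrome, read 12.86, 12.84 and 12.99 untreated and 13.21, 13.26, 13.07 and 13.23 treated. It rose by 0.29 ± 0.10 (limma adjusted p = 0.015), and the call was lost without untreated replicate 2 (0.27) and with centred arrays (0.07). Rps2 rose by 0.28 ± 0.10. Rps29 was not called: it read 14.47, 14.42 and 14.44 untreated and 14.59, 14.64, 14.58 and 14.54 treated, so every treated array was higher, by a mean of 0.14 ± 0.08 with a 95% interval of -0.03 to 0.31. Its probe set lies near the top of the scale, where the brightest value of an array is 14.81 to 15.12. Its 2 other probe sets differed by 0.19 and 0.13 and were not called either. The part of the scale's upper end in this was not tested.

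**Figure D3:**
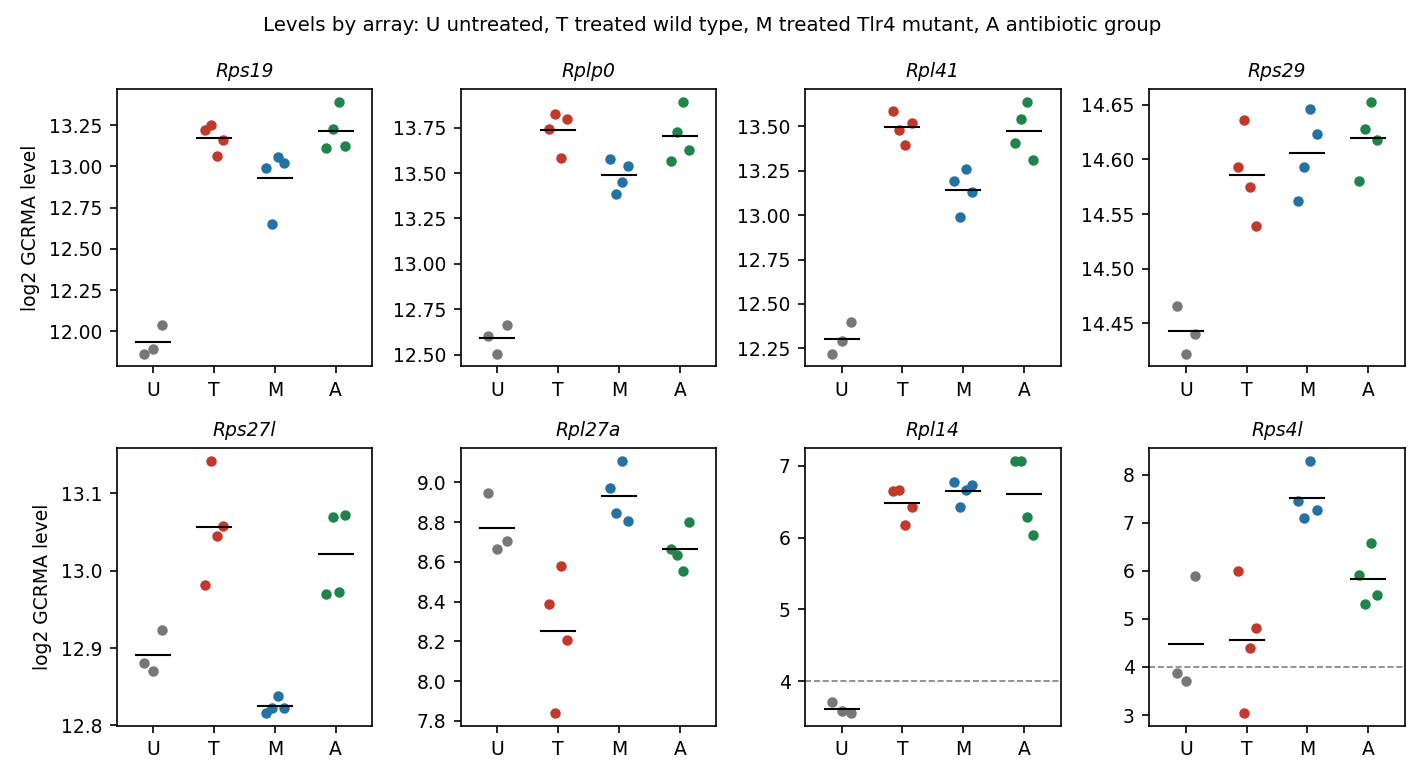
Log2 GCRMA level of 8 members on each array (points), with group means as lines: U untreated (n = 3), T treated wild type, M treated Tlr4 mutant and A antibiotic group (n = 4 each), each panel with its own vertical scale that does not start at 0. Rps19, Rplp0 and Rpl41 are higher in every treated array, Rpl27a is lowest in treated wild type and Rps4l is highest in the mutant arrays, and the dashed line marks the floor of 4.

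Of 8 paralog pairs listed, 4 had both genes tested. Rpl22l1, the copy of Rpl22 that can take its place in the ribosome, rose by 0.71 ± 0.09, and Rpl22 by 0.63 ± 0.09. Rpl7l1 rose by 0.46 ± 0.16, a call lost without untreated replicate 2 (0.31), without treated wild-type replicate 4 (0.41) and with its probe sets averaged (0.28). Rps27, read by a dim probe set, was under 4 on all untreated arrays and had a mean of 4.27 in treated wild type, at least 1.21-fold above the floor. It too passed the filter only through treated arrays. Rps27l, described elsewhere as a p53 target, read 12.88, 12.87 and 12.92 untreated and 12.98, 13.14, 13.05 and 13.06 treated. All 4 treated arrays were above the untreated ones, yet the difference of 0.16 ± 0.08 was not called (limma adjusted p = 0.093). Rps4l, a copy of Rps4x, overlapped between the groups, with means of 4.49 and 4.56.

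Whether a paralog moved apart from its parent was tested on the ratio within each array, in 12 exact two-sided permutation tests, whose smallest possible p is 0.0286. The log2 ratio of Rps27l to Rps27 changed by -0.27 from treated wild type to mutant, with the smallest possible exact permutation p, 0.0286, which is 0.114 after adjustment over the 12 tests. No change of this ratio from untreated liver is given, as Rps27 was under the floor there. The Rpl22l1 to Rpl22 ratio changed by 0.08 (exact permutation p = 0.371). No ratio passed after adjustment. With this smallest possible p, no single ratio could have passed over 12 tests. The outcome therefore does not show that paralogs kept step with their parents.

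A gene's several probe sets did not always move alike. Of 20 members with several kept probe sets, 15 had every one of them higher in treated wild type. Rpl22 was called in both directions: 2 brighter probe sets rose by 0.63 and 0.76, and a dimmer one went from 8.38 to 6.94, a log2 difference of -1.44. The average of the 3 differed by -0.016. Over all probe sets of members, 89 passed the filter, and of these 77 were higher and 2 lower. Affymetrix marks with x_at or s_at the probe sets that can also bind other transcripts, and 14 members were represented by the first kind and 2 by the second. Ribosomal protein genes have many processed pseudogenes, and hybridisation to them was not tested.

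The second comparison asks whether the loss of Tlr4 signalling changed these levels in treated mice. Between treated mutant and treated wild type, 2 members were higher (Rps4l and Rpl27a) and 2 lower (Rpl41 and Rps27l), where 13.2% of all genes were higher and 17.6% lower. With each kept probe set tested on its own, a dimmer one of Rpl7l1 (1.73), Rps3 (0.63), Rps9 (0.63) and Rpl22 (0.51) was also higher. A dimmer one of Rpl7 (-0.30) was also lower. The median log2 difference of the members was -0.07, against 0.02 over all genes. Of the 36 members with a mean level of at least 10, 29 had a difference below 0, with values from -0.35 to 0.07, and of all genes 48.2% were below 0. This tilt moved with the scaling: with centred arrays 22 of the 36 were below 0, the members' median was -0.03, and 43.4% of all genes were below 0. Every mutant array lay below every treated wild-type array for 9 of 46 members, and the same was so for 17.6% of all genes.

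Rpl41 was lower in the mutant. It read 13.19, 12.99, 13.26 and 13.13 there, all below the lowest treated wild-type value of 13.40, a difference of -0.35 ± 0.10 (limma, adjusted p = 0.014). Its probe sets did not go one way: the 2 dimmest of the 4 differed by 0.29 and 0.48 in the mutant's favour and were not called. Rps27l was also lower, at 12.82, 12.82, 12.84 and 12.82 on mutant arrays against 12.98 to 13.14 in treated wild type, with a difference of -0.23 ± 0.08 (limma, adjusted p = 0.032). The 4 mutant arrays were almost identical, and they lay below the untreated arrays too. The 2 other kept probe sets of Rps27l differed by -0.19 and -0.23 and were not called. The Rps27l call was lost with centred arrays (-0.19), in a fit of only the 2 groups, without treated wild-type replicate 2 (-0.20), 3 (-0.24) or 4 (-0.23), and without mutant replicate 1, 2 or 4 (each -0.23).

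Rps4l showed the widest difference between the strains. Mutant arrays read 7.45, 7.09, 8.28 and 7.25, and treated wild-type arrays 5.99, 3.04, 4.40 and 4.82. The groups did not overlap, and the difference was 2.96 ± 0.57 (7.76-fold, limma adjusted p = 0.0014). The antibiotic arrays, of the wild-type strain, read 5.91, 5.32, 6.58 and 5.49, and the untreated ones 3.87, 3.71 and 5.88. Against Rps4x within the same arrays, the mutant's ratio was higher by 3.08 (the smallest possible exact permutation p, 0.0286, and 0.114 after adjustment). Strain and Tlr4 allele differ together, so they cannot be told apart in this difference. No untreated mutant was measured, so whether the difference is present without DEN and CCl4 was not tested.

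Rpl27a was higher in the mutant, at 8.97, 8.85, 9.11 and 8.80, than in treated wild type, at 7.84 to 8.58. The difference was 0.68 ± 0.14 (limma, adjusted p = 0.0023). The mutant's levels overlapped those of untreated wild type, and the difference from these was 0.16 with a 95% interval of -0.16 to 0.49.

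Several bright members that were not called had mutant arrays wholly below treated wild type. Rplp0 read 13.58, 13.39, 13.45 and 13.54 in the mutant, a difference of -0.25 ± 0.10 (limma adjusted p = 0.064). Rpl4 differed by -0.21 (adjusted p = 0.056), Rpl11 by -0.23 (adjusted p = 0.059) and Rps19 by -0.24 (adjusted p = 0.10). Without treated wild-type replicate 3, the array with the lowest members' mean of its group, Rplp0 (-0.30) and Rpl4 (-0.25) were called lower. Leaving out that array raises the treated wild-type means of both genes, so wider differences follow from the choice of array. At an unadjusted p under 0.05, 6 members were lower and 2 higher, where 22.2% of all genes were lower and 19.7% higher. Rpl13a, Rpl38 and Rpsa differed by 0.00, 0.00 and 0.03.

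The third comparison asks whether antibiotics given before the injury mattered for these levels. Between the antibiotic group and treated wild type, 0 members were higher and 0 lower by limma, where 4.95% of all genes were higher and 9.01% lower. At an unadjusted p under 0.05, 2 were higher (Rpl27a and Rps4l) and 0 lower, where 12.2% of all genes were higher and 17.2% lower. With centred arrays 1 member was higher, and 45.6% of all calls were higher, in place of 35.4%. In 0 of 46 members did every antibiotic array lie above or below every treated wild-type array, where 6.45% of all genes had every array higher and 11.6% every array lower. The median difference was 0.01, and the 36 members with a mean level of at least 10 had 95% intervals within -0.39 and 0.30. Rps19, for example, read 13.11, 13.23, 13.39 and 13.13 in the antibiotic group, and differed by 0.04 with an interval of -0.19 to 0.27. Rplp0 read 13.57, 13.73, 13.89 and 13.63 and differed by -0.03 (interval -0.24 to 0.17).

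Rpl27a came nearest to a call in this comparison. It read 8.67, 8.64, 8.56 and 8.80 in the antibiotic group, 0.41 ± 0.14 above treated wild type (limma adjusted p = 0.065). It was called higher without treated wild-type replicate 3 (0.52), with centred arrays (0.46) and with array weights (0.45). Rps4l was 1.26 above treated wild type, with an interval of 0.05 to 2.48 and overlapping arrays.

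The mutant and antibiotic groups were also set against the same 3 untreated arrays. In the mutant 42 members were higher and 0 lower, where 32.6% of all genes were higher and 21.5% lower, and the median was 0.64. In the antibiotic group 40 were higher and 0 lower, where 34.5% of all genes were higher and 24.3% lower, and the median was 0.73. Both counts include members that reached the filter only with treated arrays. Of the 42 members at 4 or above on all untreated arrays, 38 were higher in the mutant and 37 in the antibiotic group, with 0 lower in either. With centred arrays the share of all calls that were higher went from 60.3% to 43.4% in the mutant, with 37 members higher and 1 lower, and from 58.6% to 44.5% in the antibiotic group, with 38 and 0. At an unadjusted p under 0.05 by limma, 42 members were higher and 0 lower in the mutant, where 35.8% of all genes were higher and 23.9% lower. In the antibiotic group 43 were higher and 0 lower at that threshold, where 36.8% of all genes were higher and 26.2% lower. These counts and the treated wild-type one share the untreated arrays and are not independent of each other. Side by side, Rps19 stood 1.24, 1.00 and 1.28 above untreated in treated wild type, mutant and antibiotic group. Rplp0 stood 1.15, 0.90 and 1.11 above, and Rps6 0.80, 0.88 and 0.90. Rpl12 stood 2.28, 2.76 and 2.66 above, but only 2 of its 3 untreated arrays were at 4 or above.

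Between the antibiotic group and the mutant, 1 member was higher and 0 lower, where 6.88% of all genes were higher and 5.41% lower. At an unadjusted p under 0.05 by limma, 5 were higher and 1 lower, where 14.3% of all genes were higher and 13.9% lower. The called member was Rpl41, at 13.40, 13.54, 13.64 and 13.31 in the antibiotic group, a difference of 0.33 ± 0.10 (limma, adjusted p = 0.041). The call was lost without mutant replicate 1 (0.35), 2 (0.28) or 4 (0.33), or antibiotic replicate 2 (0.31) or 3 (0.28), and the direction turned with its probe sets averaged (-0.14).

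Other parts of the protein synthesis machinery were counted from lists chosen by function. Over all genes tested, 35.9% were higher and 26.7% lower in treated than in untreated wild type. In treated against untreated wild type, ribosome biogenesis factors, which process and modify ribosomal RNA in the nucleolus, had 44 of 56 higher and 3 lower, with a median of 0.81. The snoRNP scaffold and core proteins led them: Nolc1 rose by 3.20, Nop58 by 2.90 and Nop56 by 2.33. RNA polymerase I and its factors had 7 of 14 higher and 1 lower (median 0.47), with Polr1e, a polymerase I subunit, up by 1.79 and the initiation factor subunit Taf1d by 1.46.

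Translation elongation factors had 4 of 7 higher, with a median of 0.49. Eef1b2 and Eef1d, which reload the tRNA carrier eEF1A with GTP, rose by 1.04 and 1.05. Initiation factors had 16 of 31 higher and 3 lower (median 0.35). Eif4e, the cap-binding protein, rose by 1.36 and Eif6, which keeps free large subunits apart from small ones, by 1.34, while the helicase Eif4a2 fell by 0.94 (from 12.42 to 11.48). Factors that bind ribosomes, and ribosomal proteins named outside the symbol rule, had 5 of 7 higher, led by Nap1l1 (1.26) and the nucleolar chaperone Npm1 (1.17).

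Mitochondrial ribosomal proteins serve the separate ribosome of that organelle. Of 76, 33 were higher (43.4%) and 5 lower (6.58%), against 35.9% and 26.7% of all genes. Their median was 0.26. Mrps25 (1.54), Mrps23 (1.48) and Mrps6 (1.19) had the largest differences. Regulators of ribosome synthesis in the mTORC1 and Myc pathways had 1 of 17 higher and 6 lower (median -0.19). Myc, which drives transcription of ribosomal genes, fell by 2.26, from 8.86 to 6.61, and the mTOR inhibitor Deptor fell by 1.47. The Myc antagonist Mxd4 fell by 1.39. Genes of the p53 response to failed ribosome assembly and of ribosome rescue had 4 of 10 higher and 2 lower. These shares lay near those of all genes. Cdkn1a, the cell cycle inhibitor p21, was below 4 on average in untreated liver (2.83) and at 10.61 in treated wild type. Mdm2 rose by 1.66 and the rescue factor Pelo by 0.81.

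**Figure D4:**
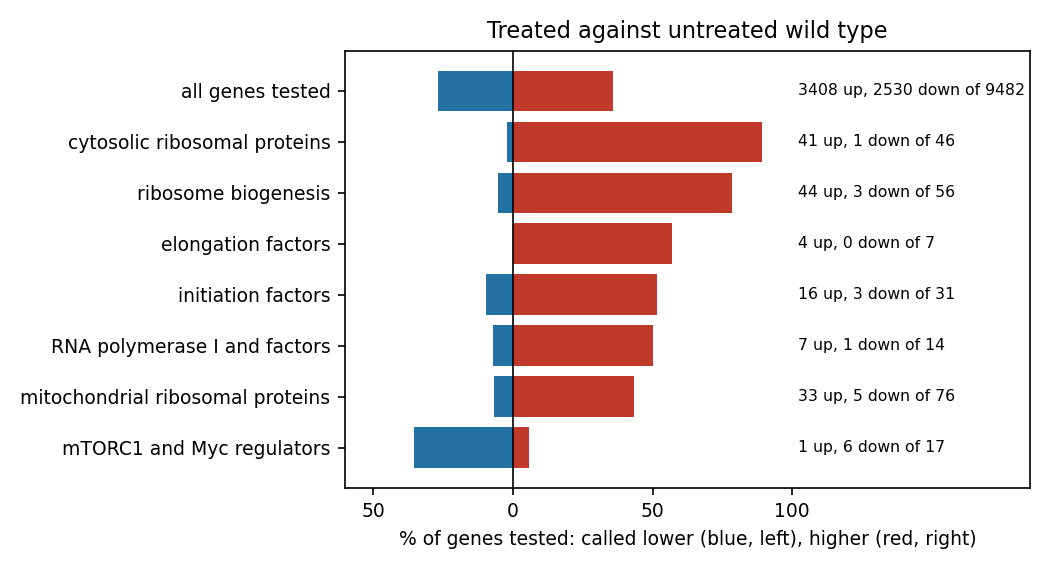
Share of the genes tested in each list that were called higher (red, to the right) or lower (blue, to the left) in treated (n = 4) against untreated (n = 3) wild type, with the counts at the side. The cytosolic ribosomal proteins have 41 of 46 higher, against 3408 of 9482 for all genes tested. The mTORC1 and Myc regulators have 6 of 17 lower, against 2530 of 9482 (26.7%) for all genes tested.

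In the mutant against treated wild type, biogenesis factors had 6 of 56 higher (10.7%) and 1 lower (1.79%), against 13.2% and 17.6% of all genes. Mitochondrial ribosomal proteins had 1 of 76 higher (1.32%) and 8 lower (10.5%). In the antibiotic group against treated wild type, 2 of 56 biogenesis factors were higher (3.57%) and 1 lower (1.79%), against 4.95% and 9.01% of all genes. Mitochondrial ribosomal proteins there had 4 of 76 higher (5.26%) and 1 lower (1.32%).

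Cell type markers also differed between the groups, not always as the members did. In bulk tissue fewer cells of a type and less RNA per cell cannot be told apart. Of all genes tested, 35.9% were higher and 26.7% lower with treatment. In the mutant against treated wild type the shares were 13.2% and 17.6%, and in the antibiotic group against treated wild type 4.95% and 9.01%. Proliferation markers, 12 of 12 higher in treated than untreated wild type, had a summed log2 level of 6.83 to 7.31 untreated and 14.29 to 14.63 treated. They were lower than treated wild type for 12 of 12 genes in the mutant (12.62 to 13.04) and for 10 of 12 in the antibiotic group (12.59 to 14.08). Kupffer cell and macrophage markers were higher for 11 of 13 with treatment (10.00 to 11.20 untreated, 12.62 to 13.14 treated), lower for 12 of 13 in the mutant (10.23 to 10.59) and for 11 of 13 in the antibiotic group (11.51 to 12.41). Among their markers Timd4 was under 4 on all arrays.

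Stellate cell and fibroblast markers were higher for 11 of 11 with treatment (10.88 to 12.04 untreated, 13.75 to 13.98 treated), and lower for 11 of 11 in the mutant (11.90 to 12.35) and 7 of 11 in the antibiotic group (13.04 to 13.58). Des was under 4 on all arrays. Hepatocyte markers had 6 of 13 lower with treatment, where 26.7% of all genes were lower. They had 1 lower in the mutant and 1 in each direction in the antibiotic group. Sinusoidal endothelial markers had 5 of 10 higher with treatment, where 35.9% of all genes were higher. Of these markers 10 of 10 were lower in the mutant than in treated wild type, and 0 of 10 were lower in the antibiotic group (median -0.03). Of 10 markers of monocyte-derived macrophages on the array, Trem2, Itgam and Itgax were under 4 on all arrays. The other 7 were all higher with treatment, 5 of them were lower in the mutant, and 3 were lower and 1 higher in the antibiotic group. Their summed log2 level was 6.91 to 8.06 untreated, 12.39 to 12.86 in treated wild type, 12.36 to 13.43 in the mutant and 12.56 to 13.57 in the antibiotic group, so the 3 treated groups overlapped.

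Thinner lists moved too. Both neutrophil markers tested, of 8 on the array, were higher with treatment and lower in the mutant and the antibiotic group. Cholangiocyte markers had 3 of 4 tested higher with treatment, 2 higher again in the mutant and 0 called in the antibiotic group. Both erythroid markers tested were lower with treatment (median -2.56), and 0 were called in the mutant or the antibiotic group against treated wild type. Of 2 B cell markers tested, 1 was higher and 1 lower with treatment, both were lower in the mutant and 1 was lower in the antibiotic group. All 12 T and NK cell markers on the array were under 4 on every array. The part of these cells in the ribosomal protein differences was not tested. The bright members' mean over the same arrays stood at 12.74 ± 0.04 (SD, n = 3) in untreated, 13.48 ± 0.05 (SD, n = 4) in treated wild type, 13.38 ± 0.06 (SD, n = 4) in the mutant and 13.48 ± 0.06 (SD, n = 4) in the antibiotic group.

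The genes outside the family whose level followed the members' array mean most closely were Tpm1, Eef1b2, Acot9, Nop56 and Gar1. Over the 15 arrays their correlations with the mean of the 42 members other than paralogs were 0.990, 0.987, 0.987, 0.986 and 0.985. The arrays share the step between untreated and treated mice, and over the 12 treated arrays alone the correlations were 0.846, 0.676, 0.780, 0.814 and 0.775. Tpm1, which encodes tropomyosin, went from 6.18 ± 0.38 (SD, n = 3) untreated to 9.57 ± 0.33 (SD, n = 4) in treated wild type. Nop56 and Gar1 are core proteins of the box C/D and H/ACA snoRNPs that modify ribosomal RNA.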

How the data were processed

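Total RNA was purified with Trizol and columns, amplified from the 3′ end and biotin-labelled, per the labels' protocols. The deposited values are log2 probe set summaries that the authors made with GCRMA, per the submitters' processing notes, with no version or settings given. GCRMA corrects background by probe sequence and normalises between arrays, so a change shared by most genes is removed, and dim values are compressed towards background. Arrays give no depth, and their number limits the precision.

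Of 45101 probe sets, 34945 had 1 symbol, 932 several, 9160 none and 64 were controls; only the first were tested. A probe set was kept at 4 or above on at least 3 arrays, and the one with the highest mean stood for its gene. limma 3.58.1 (R 4.3.3) was fitted to all 15 arrays with 4 group means (11 residual degrees of freedom), and checked on simulated data. Python 3.11.15, pandas 2.3.3 and matplotlib 3.10.9 were also used.

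Members and lists were chosen with earlier results of these data known. Members named were the 5 called with the largest difference in each direction of the first 3 comparisons, the paralog pairs and a fixed set of 20 genes, and up to 3 called genes of each list. Rps2, Rps7, Rps9, Rps28, Rps29 and Rpl35, and Rps18 and Rpl7a among the sequences, were chosen after their values were seen. Differences are limma estimates, ± SE.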

Additional observations from a re-analysis of the deposited data

Results flagged for a closer look

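Of 78 groups of 4 arrays examined for the per-array means and the named members, 6 held an array set apart from its group by a gap larger than Dixon's 95% value of 0.829, where chance alone flags about 1 in 20 groups. The mean of the bright members was lowest on treated wild-type replicate 3, at 13.396 against 13.502 on the nearest array, and on treated mutant replicate 2, at 13.293 against 13.406. On the same 2 arrays, Rpl4 was lowest of the treated wild-type group (13.646, nearest 13.79) and Rps19 lowest of the mutant group (12.652, nearest 12.992). Antibiotic replicate 3 was highest of its group for Rpl39 (5.2968, nearest 5.0699) and Rps27 (4.4914, nearest 4.3239).

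Probe sets that carry several gene symbols, at least 1 of them of the ribosomal protein series, took no part in the comparisons. Of 110 such probe sets 96 passed the filter, and 86 of these were higher and 0 lower in treated than in untreated wild type by limma, with a median difference of 0.68 and a range of 0.04 to 2.12. Between mutant and treated wild type 2 were higher and 3 lower (median -0.06), and between the antibiotic group and treated wild type 2 were higher (median 0.01).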

How the results depend on the processing

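The comparisons were refitted under 13 alternatives and without each of the 15 arrays. For the 25 named members that were tested, over 6 comparisons, 2793 values stayed on their side of the threshold, 72 lost the call, 29 gained one and 7 reversed. A reversal was counted only where the gene was called in the main fit or in the alternative. Uncalled values that changed sign, such as Rpl39 in treated against untreated wild type with centred arrays, are therefore among the 2793. With centred arrays the member medians against untreated were 0.50 (treated wild type), 0.46 (mutant) and 0.55 (antibiotic group), with 1 member lower in mutant against treated wild type, 1 higher in antibiotic against treated wild type and 1 lower in mutant against untreated. With every probe set counted, 77 were higher and 2 lower in treated wild type, 80 and 1 in the mutant and 75 and 1 in the antibiotic group, each against untreated, 6 higher in mutant against treated wild type, and 0 higher and 2 lower in antibiotic against mutant. At 1.5-fold, 0 were lower in treated against untreated wild type and 26 higher in mutant against untreated.

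The 2 members lower in mutant against treated wild type became 1 with centring, with mean probe sets and with only the groups compared, 4 with values under 4 set to 4 and with the filter at 6, 5 with array weights and with a trended robust prior, 0 at an adjusted p under 0.01 and at 1.5-fold, and 1 to 3 without single arrays. The 1 member higher in antibiotic against mutant became 3 with the trended robust prior, 0 with mean probe sets, without x_at and s_at probe sets, with only the groups compared, at 0.01 and at 1.5-fold, and 0 to 1 without single arrays. There, 1 was lower with values under 4 set to 4 and with only the groups compared. In antibiotic against treated wild type, 1 was higher with array weights and 0 to 1 were higher without single arrays.

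Averaging probe sets reversed Rpl22 against untreated in treated wild type (-0.016) and the antibiotic group (-0.095), Rpl41 in mutant against treated wild type (0.062) and in antibiotic against mutant (-0.14), and Rpl7l1 in mutant against treated wild type (0.54). Without x_at and s_at probe sets Rpl41 reversed in the same comparisons (0.48 and -0.79). The probe sets of a gene differ in direction there; the cause was not tested. No paired analysis was possible because replicate numbers were given in array order and pair no samples. Dim members near 4 are limited by signal over background.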
